A study of Mus musculus with 22 samples.

Results

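The genes described are 10 members of the interleukin-6 (IL-6) family system: the cytokine genes Il6, Il11, Lif and Osm, the receptor genes Il6ra, Il11ra1, Lifr, Osmr and Il6st, and the feedback gene Socs3. They were chosen by name, with earlier results of these data known, and all 10 were found among the 25471 genes of the count tables. RNA came from the middle part of a forearm bone, the ulna, of 11 mice, each of which gave a right ulna loaded mechanically and a left ulna that was not. 4 mice were conditional knockouts of Tlr4 (CKO), the receptor for bacterial lipopolysaccharide, and 7 were wildtype (WT), so that the 22 libraries fell into CKO loaded (n = 4), CKO non-loaded (n = 4), WT loaded (n = 7) and WT non-loaded (n = 7). Osteoblasts, which lay down bone, are named in the title of the series as the site of interest. The Cre driver, strain, age, loading regime and time of harvest are not given in the labels.

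Cytokines of this family signal through a shared receptor chain, gp130, which Il6st encodes. IL-6 and IL-11 first bind their own alpha chains (Il6ra, Il11ra1), while leukaemia inhibitory factor (Lif) and oncostatin M (Osm) bring gp130 together with the LIF receptor (Lifr) or the oncostatin M receptor (Osmr). The receptors activate JAK kinases and the transcription factor STAT3, and Socs3, a STAT3 target, binds gp130 and the kinases and shuts the signal down. In bone these cytokines act on osteoblasts, osteocytes and, through them, osteoclasts.

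Libraries held 21999891 to 42833729 counts, and levels are in CPM, counts scaled to the TMM-adjusted size of the library. All 10 osteoblast markers and all 9 osteocyte markers of the lists used were present, but the pieces also held other tissue. The marrow score, the mean log2 CPM of marker genes of marrow cells (erythroid cells, B cells and neutrophils), was highest in CKO non-loaded 691 (7.47) and WT non-loaded 699 (7.54), the libraries in which the muscle score was also lowest (8.92 and 9.98). Tlr4 itself lay at 24.9 to 33.8 CPM in the 8 CKO libraries and 24.9 to 42.2 CPM in the 14 WT libraries; a count over the whole gene does not show the loss of an exon or a loss in 1 cell type. Ltbp2, a matrix protein gene that is no member, lay at 205 to 344 CPM in 7 CKO libraries and 26.5 to 73.5 CPM in 13 WT libraries, but the library labelled CKO loaded 688 had 38.4 CPM and the library labelled WT loaded 686 had 380 CPM. Whether these 2 loaded libraries were exchanged cannot be told from the labels. The Osmr, Socs3 and Lif results and the interaction are therefore also given without mice 686 and 688.

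Per kilobase of exon, which allows genes to be compared, the shared and LIF receptor chains stood highest and Il6 and Il11 lowest, while the receptor chain Osmr overlapped the cytokine Osm in non-loaded ulnae. In WT non-loaded ulnae Lifr averaged 32.0 ± 7.33 and Il6st 30.5 ± 4.50 CPM per kb (SD, n = 7 mice), and their ranges overlapped. Il11ra1 (8.44 ± 2.12), Socs3 (7.71 ± 1.49) and Il6ra (7.47 ± 1.66) followed, with ranges that overlapped from each to the next. Osmr had 2.68 ± 0.53 and Osm 1.64 ± 1.33 CPM per kb, again with overlapping ranges. Lif had 0.466 ± 0.135, and Il11 and Il6 were lowest, at 0.0651 ± 0.0495 and 0.0571 ± 0.0355 CPM per kb. In CKO loaded ulnae Socs3 stood higher, at 17.0 ± 8.02 CPM per kb, its range overlapping that of Lifr (26.0 ± 3.24) and not that of Il11ra1 (8.71 ± 0.61).

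**Figure D1:**
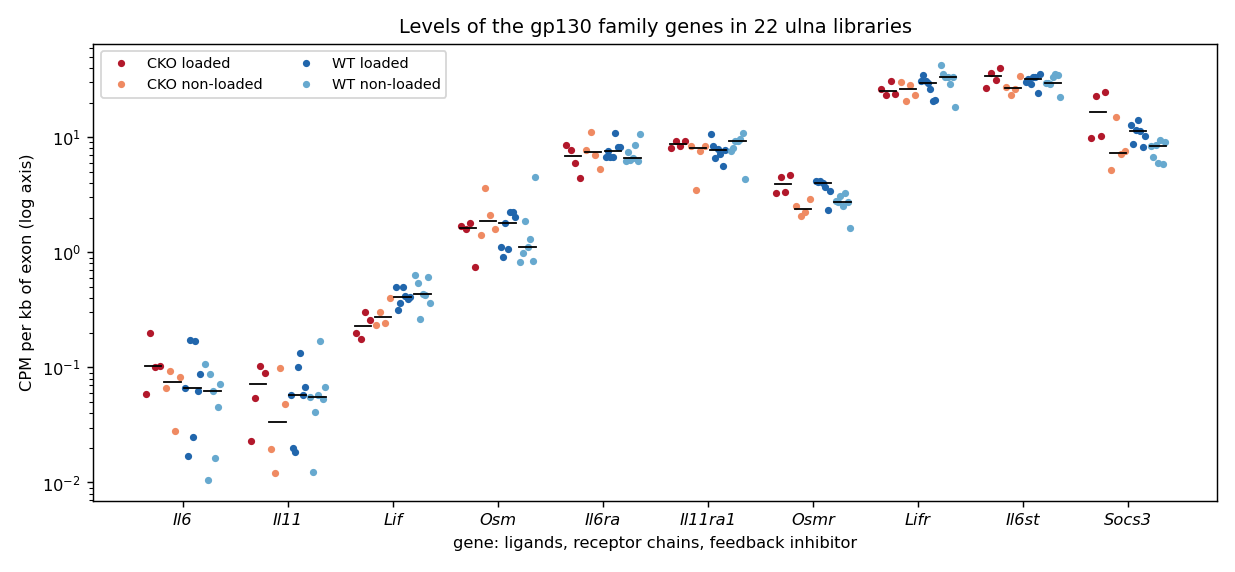
Level of each gene per kilobase of exon (CPM per kb, log axis) in every library; points are libraries, bars are group medians, and the groups run from CKO loaded to WT non-loaded within each gene. By median, Lifr and Il6st lie highest in all 4 groups, and Il6 and Il11 lowest. In CKO loaded ulnae the points of Socs3 overlap those of Lifr, and the points of Lif overlap those of Il6.

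The members with the most regular limb difference were Osmr and Socs3, higher in nearly every loaded ulna. Osmr was 1.62-fold higher in CKO and 1.38-fold higher in WT loaded ulnae, and Socs3 1.95-fold and 1.42-fold higher. In edgeR's quasi-likelihood test over 18793 genes neither passed an adjusted p of 0.05 in either genotype or in the mean of both; Osmr came nearest, at adjusted p = 0.0815 for the mean. The count of members called was 0 of 8 tested in every contrast, where edgeR called 0.016% of all genes for loading in CKO, 0.00532% for loading in WT and 0.0905% for the mean of both. 2 of the 8 tested members, Osmr and Socs3, had an unadjusted p under 0.05 with a higher loaded limb in each of these contrasts. The share of all genes was 1.61% in CKO, 1.22% in WT and 1.75% in the mean. Among the other members the count was 0. As the members were chosen with earlier results known, these shares are a description and no test.

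Osmr (ENSMUSG00000022146, chromosome 15, 6813577 to 6874969, GRCm38) encodes the chain that gives oncostatin M its own receptor. Its level was 39.9, 54.5, 40.4 and 56.8 CPM in the loaded ulnae of CKO mice 688, 691, 693 and 698, against 30.8, 25.1, 27.1 and 35.1 CPM in their non-loaded ulnae. Every CKO loaded library lay above every CKO non-loaded one, which held for 0.958% of all genes. In WT mice Osmr ran from 28.5 over a median of 48.1 to 50.6 CPM in loaded ulnae, against 19.8, 33.3 and 39.9 CPM in non-loaded ulnae, and the groups overlapped. The loaded limb was higher in 10 of 11 mice; for 0.835% of all genes it was higher in at least 10. The exception was WT mouse 694, with 28.5 CPM in the loaded and 33.3 CPM in the non-loaded ulna.

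The log2 fold change of Osmr was 0.70 ± 0.19 in CKO (SE; edgeR adjusted p = 0.739) and 0.46 ± 0.14 in WT (adjusted p = 1), and 0.58 ± 0.12 for the mean of both, rank 19 of 18793 by p (unadjusted p = 8.8e-05). Other fits of the same counts called Osmr higher. DESeq2 did so for the mean of both (0.58 ± 0.13, adjusted p = 0.00323), with 0.176% of all genes called. edgeR with the muscle and marrow scores as covariates did so for the mean (0.53 ± 0.08, adjusted p = 0.00512; 0.112% of genes) and for WT alone (0.55, adjusted p = 0.0434; 0.0266%). When the mouse was a block, the mean was 0.58 ± 0.11 (adjusted p = 0.152; 0.0585% of genes called). A fit with block and both covariates together was chosen after the data were seen. It gave 0.48 ± 0.06 for the mean (adjusted p = 0.00294, 0.287% of genes called) and 0.52 for WT (adjusted p = 0.0184, 0.101%). Of the fits that left out 1 mouse, those without WT mouse 694 (adjusted p = 0.0179) or 699 (0.0487) made the call for the mean, and the other 9 missed it, with adjusted p up to 0.514 without CKO mouse 691. Without mice 686 and 688 the mean was 0.62 ± 0.15 and missed the threshold (adjusted p = 0.376).

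Markers of other cell types differed between limbs too, and the covariates cover only muscle and marrow. For loading in CKO, 16 of 16 muscle markers lay above 0 (median log2 fold change 0.54). Below 0 were 12 of 12 neutrophil, 9 of 9 B cell, 9 of 9 erythroid and 10 of 10 T and NK cell markers (medians -0.59, -0.54, -0.48 and -0.68). These shifts were uneven between mice. The muscle score, loaded minus non-loaded, differed by -0.42, 2.68, 0.22 and 0.79 in CKO 688, 691, 693 and 698. The marrow score differed by 0.74, -1.31, -0.20 and -1.08 in the same mice. For loading in WT, 13 of 16 muscle (median -0.12), 8 of 12 neutrophil (median -0.075) and 6 of 10 T and NK cell markers (median -0.02) lay below 0. 8 of 9 B cell (median 0.11) and 9 of 9 erythroid markers (median 0.36) lay above 0. Osteoclast markers lay below 0 in 8 of 8 in CKO (median -0.69) and in 8 of 8 in WT (median -0.38). Osteoblast markers lay below 0 in 10 of 10 in WT (median -0.31) and above 0 in 6 of 10 in CKO (median 0.03). Fibroblast markers of tendon and periosteum lay above 0 in 7 of 9 in each genotype (medians 0.19 in CKO, 0.15 in WT). Endothelial markers lay above 0 in 7 of 8 in CKO (0.12) and 8 of 8 in WT (0.05). Adipocyte markers lay below 0 in 6 of 7 in CKO (-0.46) and 7 of 7 in WT (-0.25). Osteocyte, Schwann cell and macrophage markers had medians of 0.32, 0.34 and -0.47 in CKO and -0.32, -0.17 and 0.01 in WT. Beyond muscle and marrow, the part of these cell types in the Osmr and Socs3 differences was not tested. The limb difference of Osmr was lowest in WT 694 (-0.23 on the log2 scale), whose loaded limb differed from its non-loaded limb by 1.23 in marrow score and by -1.30 in muscle score. It was highest in CKO 691 (1.11) and WT 699 (1.06), where the marrow score differed by -1.31 and -1.09. With both scores as covariates the log2 fold change for the mean of both was 0.53 for Osmr and 0.93 ± 0.18 for Socs3 (adjusted p = 0.0535). In a bulk sample fewer cells of a type and less RNA per cell cannot be told apart.

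**Figure D2:**
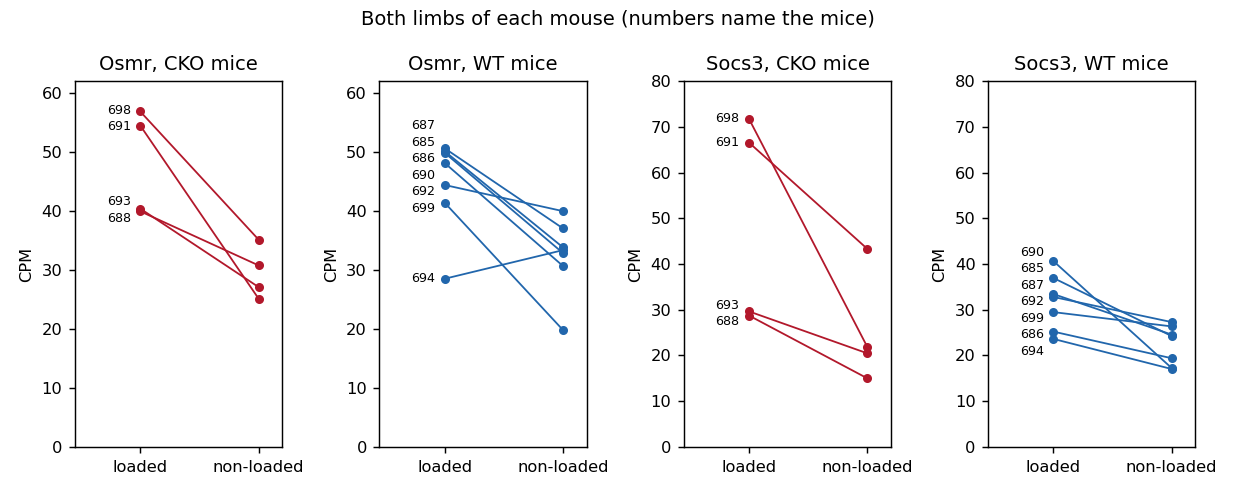
Osmr and Socs3 in CPM in the loaded and non-loaded ulna of every mouse, 4 CKO and 7 WT; each line joins the limbs of 1 mouse. Osmr is higher in the loaded limb of all mice but WT 694, and Socs3 in the loaded limb of all 11.

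Socs3 (ENSMUSG00000053113, chromosome 11, 117966079 to 117970047) is the inhibitor that gp130 signalling induces against itself. It had 28.7, 66.5, 29.6 and 71.7 CPM in the loaded ulnae of CKO mice 688, 691, 693 and 698, against 15.0, 43.3, 20.5 and 21.8 CPM in the non-loaded ulnae. The level of mouse 691 was high in both limbs, so that the CKO groups overlapped although each mouse was higher in its loaded limb. In WT mice Socs3 ran from 23.6 over 32.8 to 40.6 CPM in loaded ulnae, against 17.0, 24.2 and 27.3 CPM in non-loaded ulnae, overlapping. In 11 of 11 mice the loaded limb had more Socs3, which held for 0.165% of all genes.

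The log2 fold change of Socs3 was 0.97 ± 0.31 in CKO (adjusted p = 0.739), 0.51 ± 0.23 in WT (adjusted p = 1) and 0.74 ± 0.19 for the mean of both (adjusted p = 0.423, rank 42 by p). Within the mouse the error was smaller: a fit with the mouse as block gave 0.73 ± 0.12 for the mean, short of the threshold (adjusted p = 0.0786). Its per-mouse limb difference averaged 0.95 ± 0.54 on the log2 scale in CKO (SD, n = 4) and 0.51 ± 0.35 in WT (n = 7), from 0.16 in WT 699 to 1.71 in CKO 698. None of the 19 other settings called Socs3; the adjusted p for the mean of both ran from 0.0535 to 1. Without mice 686 and 688 that mean was 0.75 ± 0.20 (adjusted p = 0.65).

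Of the cytokine genes, Il6 and Il11 were near the limit of counting. Il6, the family's best known cytokine gene, had 3, 17, 8 and 8 counts in CKO loaded, against 4, 9, 2 and 6 counts in CKO non-loaded libraries of mice 688, 691, 693 and 698. In WT it had 1 to 12 counts in loaded and 1 to 9 counts in non-loaded libraries. Pooled over a group this came to 0.284 CPM in CKO loaded (95% exact Poisson interval 0.199 to 0.393) and 0.178 in CKO non-loaded (0.110 to 0.272), then 0.210 in WT loaded (0.151 to 0.285) and 0.134 in WT non-loaded (0.0903 to 0.191). The intervals, which cover counting error only, overlapped between limbs. By CPM the loaded limb was higher in 8 of 11 mice, among them WT 686, which had 1 count in each limb. At such counts the tally gives no direction. Il6 did not pass the filter on low counts and its limb difference was not tested.

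Il11, which in mice supports bone formation, was as scarce and was not tested either. It had 1, 4, 7 and 6 counts in CKO loaded and 1, 1, 6 and 3 counts in CKO non-loaded libraries, and 1 to 8 counts in WT loaded and 1 to 9 counts in WT non-loaded libraries. The pooled levels were 0.142 CPM (0.0841 to 0.224) in CKO loaded and 0.0932 (0.0465 to 0.167) in CKO non-loaded, and 0.144 (0.0954 to 0.207) in WT loaded and 0.125 (0.0830 to 0.180) in WT non-loaded ulnae. These intervals overlapped as well.

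Lif, a cytokine gene of osteoblasts and many other cells, averaged less in CKO than in WT ulnae in both limbs, without passing the test. The gene (ENSMUSG00000034394) lies on chromosome 11, 4257557 to 4272514. It had 0.858, 0.764, 1.31 and 1.13 CPM in the loaded ulnae of CKO mice 688, 691, 693 and 698, against 1.37 CPM at the lowest, 1.77 at the median and 2.17 at the highest in those of WT mice. Every library labelled CKO loaded lay below every library labelled WT loaded, as they did for 0.511% of all genes. This rests on the labels of loaded 688 (0.858 CPM) and 686 (1.37 CPM): if these 2 were exchanged the groups would overlap. Without both mice the CKO loaded libraries ran from 0.764 to 1.31 CPM and the WT loaded libraries from 1.57 to 2.17 CPM. In non-loaded ulnae Lif had 1.01, 1.33, 1.06 and 1.73 CPM in CKO, against 1.15, 1.87 and 2.77 CPM in WT, and these groups overlapped. The counts behind these levels were 18 to 97 per library.

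The log2 fold change of Lif, CKO over WT, was -0.82 ± 0.24 in loaded ulnae (0.568-fold, rank 19 of 18793 by p, adjusted p = 0.601) and -0.66 ± 0.23 in non-loaded ulnae (0.632-fold, adjusted p = 0.976). Neither passed the threshold, and edgeR called 0% of all genes in either contrast. Lif was 1 of 8 members with an unadjusted p under 0.05 and lower in CKO, against 2.81% of all genes in loaded and 2.19% in non-loaded ulnae. Without mice 686 and 688 the values were -0.79 ± 0.27 (adjusted p = 0.303) and -0.53 ± 0.27 (adjusted p = 0.779). In all other settings the value lay between -0.97 and -0.69 in loaded and between -0.85 and -0.58 in non-loaded ulnae. Markers of many cell types lay to 1 side of 0 for CKO over WT in loaded bone. 8 of 8 osteoclast markers lay below 0, with a median of -0.55. Their summed level ran from 352 to 738 CPM in CKO loaded and from 459 to 979 CPM in WT loaded libraries. 9 of 10 osteoblast markers were also below 0 (median -0.25). So were 12 of 12 neutrophil (-0.37), 9 of 9 erythroid (-0.30), 8 of 9 B cell (-0.37), 10 of 10 macrophage (-0.35) and 10 of 10 T and NK cell markers (-0.50). 16 of 16 muscle (median 0.63), 7 of 7 Schwann cell (0.45) and 6 of 9 osteocyte markers (0.03) lay above 0. In non-loaded bone 10 of 10 osteoblast markers (median -0.54), 9 of 9 osteocyte markers (median -0.61) and 7 of 8 osteoclast markers (median -0.23) lay below 0. There 12 of 12 neutrophil and 10 of 10 T and NK cell markers lay above 0 (medians 0.18 and 0.14). The part of these cell types in the Lif difference was not tested. Between limbs Lif gave -0.34 ± 0.26 in CKO and -0.18 ± 0.19 in WT and was lower in the loaded ulna in 7 of 11 mice.

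**Figure D3:**
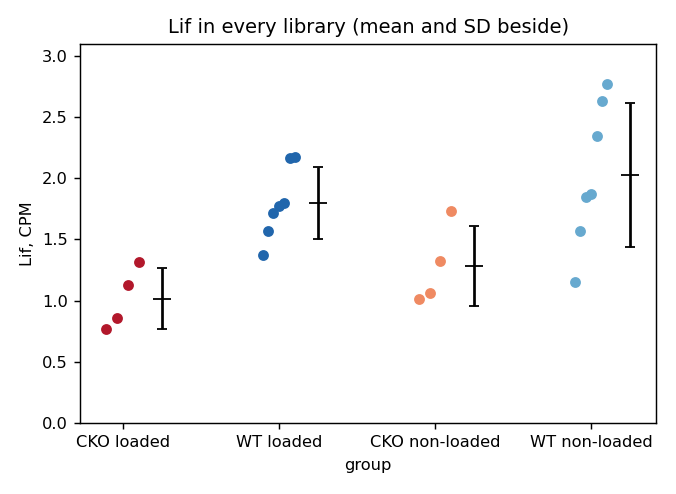
Lif in CPM in every library, CKO beside WT for loaded and then for non-loaded ulnae; bars give the mean and SD of the group. The 4 CKO loaded libraries lie between 0.764 and 1.31 CPM, below all 7 libraries labelled WT loaded, while the non-loaded groups overlap; the labels of loaded 688 (0.858 CPM) and 686 (1.37 CPM) are in doubt.

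Osm, the oncostatin M gene, which macrophages, neutrophils and osteocytes express, was highest in 2 non-loaded libraries, 1 of each genotype. It had 3.81, 3.59, 4.06 and 1.69 CPM in CKO loaded and 3.23, 8.25, 4.83 and 3.64 CPM in CKO non-loaded ulnae of mice 688, 691, 693 and 698. In WT it ran from 2.08 over 4.09 to 5.06 CPM in loaded and from 1.86 over 2.54 to 10.3 CPM in non-loaded ulnae. The highest libraries, WT non-loaded 699 and CKO non-loaded 691, were those with the highest marrow scores and the lowest muscle scores. The lowest, CKO loaded 698, had the lowest marrow score (5.43) and the highest muscle score (12.3). The log2 fold change for loading was -0.61 ± 0.48 in CKO (adjusted p = 0.739) and -0.00 ± 0.42 in WT (adjusted p = 1), and the WT value was 0.45 without mouse 699. In CKO it was -0.051 with muscle and marrow covariates and -0.29 without mouse 691. In 1 of 4 CKO and 3 of 7 WT mice the loaded ulna had more Osm.

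Il6ra, the IL-6 binding chain, is expressed by leukocytes and hepatocytes more than by osteoblasts. It had 73.6, 66.7, 52.1 and 38.1 CPM in CKO loaded and 67.1, 96.7, 60.8 and 45.9 CPM in CKO non-loaded ulnae, and 57.7 to 93.8 CPM in WT loaded and 54.0 to 92.3 CPM in WT non-loaded ulnae. Its log2 fold change for loading was -0.23 ± 0.23 in CKO and 0.08 ± 0.17 in WT, neither past the threshold, and the groups overlapped. In CKO it was -0.0060 with muscle and marrow covariates, -0.079 without mouse 691 and -0.36 without mice 686 and 688. The library with the highest marrow score but one, CKO non-loaded 691, had the highest Il6ra. The next highest, WT loaded 692 (93.8 CPM), came only 12th of the 22 libraries by marrow score. The antisense gene Gm42809 overlaps 242 exon bases of Il6ra, and whether counting used the strand is not stated.

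Il11ra1, the IL-11 binding chain, was lowest where the marrow score was highest. The 3 libraries with the highest marrow scores had the lowest 3 levels of all 22, 15.6 CPM in CKO non-loaded 691, 25.1 CPM in WT loaded 694 and 19.4 CPM in WT non-loaded 699. The same 3 libraries had the lowest muscle scores. Other CKO libraries lay at 35.7 to 41.2 CPM when loaded and 34.2 to 37.3 CPM when not. Loading gave 0.33 ± 0.25 in CKO and -0.13 ± 0.19 in WT on the log2 scale, and the CKO value was 0.086 without mouse 691 and 0.025 with muscle and marrow covariates. Il11ra2, a near copy of Il11ra1 to which reads could be split, had at most 0.544 CPM in any library.

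**Figure D4:**
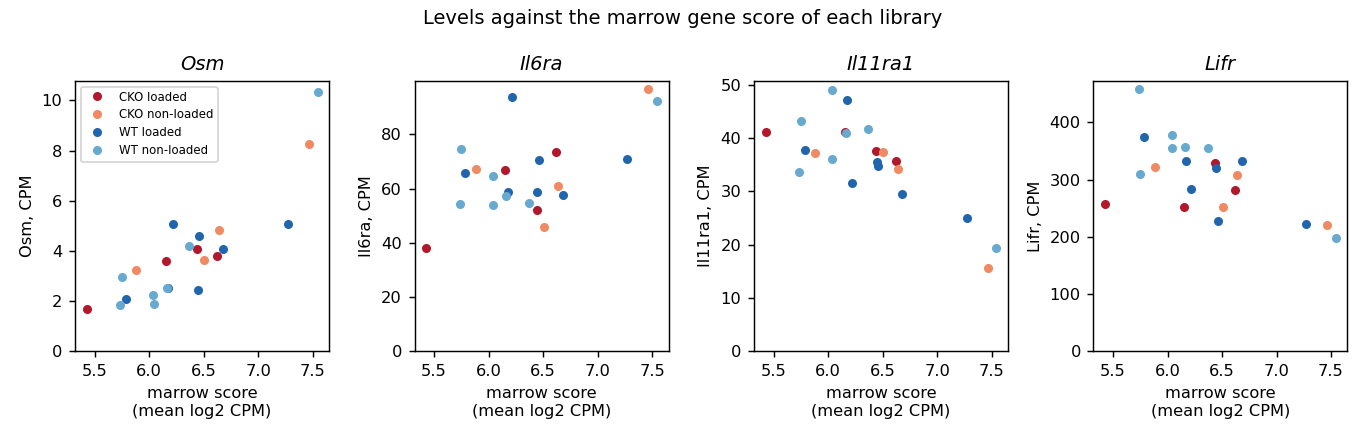
Osm, Il6ra, Il11ra1 and Lifr in CPM against the marrow score of each library (mean log2 CPM of marker genes of marrow cells), coloured by group. Osm is highest and Il11ra1 lowest in the libraries with marrow scores of 7.47 and 7.54, which also had the lowest muscle scores.

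Lifr, the LIF receptor chain, and Il6st, the gp130 chain that all these receptors share, were the members with the highest levels. Lifr averaged 280 ± 35.0 CPM in CKO loaded and 276 ± 47.6 CPM in CKO non-loaded ulnae (SD, n = 4), and 299 ± 57.3 CPM in WT loaded and 345 ± 79.0 CPM in WT non-loaded ulnae (n = 7). Il6st averaged 372 ± 64.2 CPM in CKO loaded and 309 ± 52.1 CPM in CKO non-loaded ulnae, and 344 ± 41.5 CPM in WT loaded and 339 ± 49.9 CPM in WT non-loaded ulnae. The log2 fold change for loading was 0.02 ± 0.21 in CKO and -0.21 ± 0.16 in WT for Lifr, and 0.27 ± 0.16 in CKO and 0.02 ± 0.12 in WT for Il6st. All 4 stayed above the threshold, at adjusted p from 0.739 to 1.

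**Figure D5:**
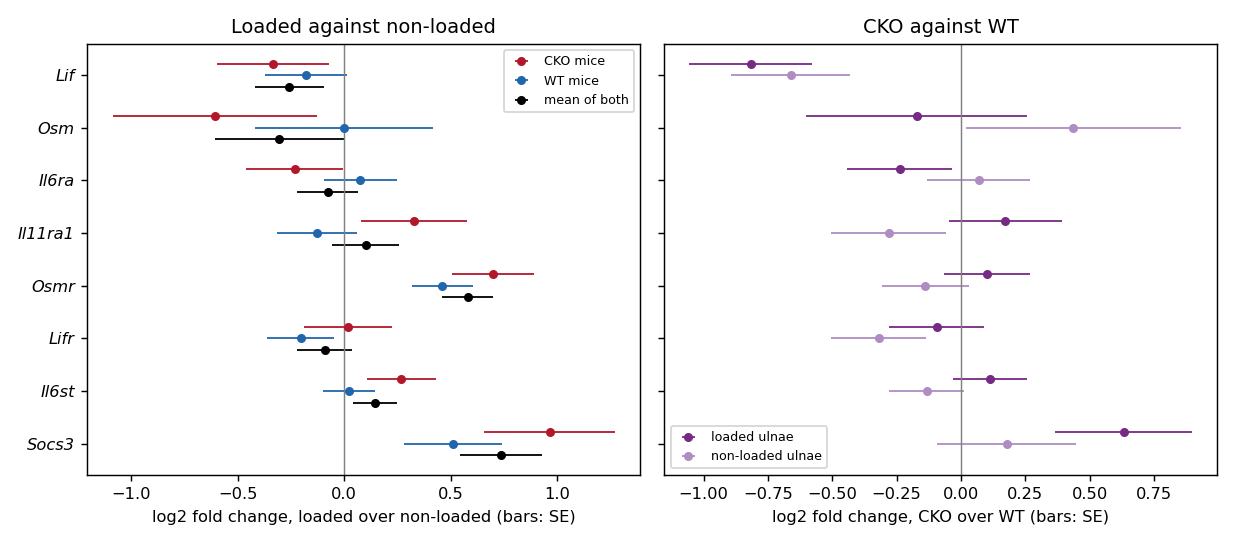
Log2 fold changes of the 8 tested members with their SE from edgeR, for loaded over non-loaded limbs (left; CKO, WT and the mean of both) and for CKO over WT (right; loaded and non-loaded ulnae). Osmr and Socs3 lie above 0 for loading in both genotypes, and Lif lies below 0 for CKO over WT in both limbs.

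Whether the response to load differed between genotypes was tested as an interaction, the limb difference in CKO minus that in WT. It was 0.46 ± 0.38 for Socs3, 0.24 ± 0.24 for Osmr, 0.25 ± 0.20 for Il6st, 0.45 ± 0.31 for Il11ra1 and 0.22 ± 0.26 for Lifr on the log2 scale. It was -0.16 ± 0.33 for Lif, -0.31 ± 0.29 for Il6ra and -0.61 ± 0.60 for Osm. None of the 8 members passed (lowest adjusted p = 0.697), edgeR called 0% of all genes, and 0 members had an unadjusted p under 0.05, against 2.6% of genes; DESeq2 called 0 genes too. With muscle and marrow covariates the sign turned for Osmr (-0.054), and the value was -0.050 for Osm, 0.085 for Il11ra1, 0.015 for Il6st, 0.0090 for Lifr, -0.065 for Il6ra, -0.25 for Lif and 0.65 for Socs3. The Socs3 interaction was 0.17 without CKO mouse 698 and 0.69 without CKO mouse 691, and that of Osmr was 0.11 without CKO mouse 691. Without mice 686 and 688 it was 0.46 for Socs3, 0.37 for Osmr, 0.37 for Il6st, 0.64 for Il11ra1, 0.36 for Lifr, -0.26 for Lif, -0.44 for Il6ra and -0.83 for Osm. In loaded ulnae Socs3 was 1.55-fold higher in CKO than in WT (log2 0.63 ± 0.27, adjusted p = 0.601), 1 of 8 members with an unadjusted p under 0.05 and higher, against 4% of all genes. CKO mice 691 and 698 lay above the WT range and 688 and 693 inside it, and without CKO mouse 698 the log2 value was 0.40.

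The promoters of the members that stood out are shown because the pathway's own factor, STAT3, and AP-1, a factor of mechanically stimulated bone, have short recognition sequences that can be looked for there. The windows come from RefSeq (GRCm38.p6), with 250 bases before and 50 after a listed start, and 9 of the 10 members had one. Capitals mark TGANTCA, a looser form of the AP-1 sequence, in Lif, plus strand, chr11:4257318-4257617, and in Osmr, minus strand, chr15:6874264-6874563. They mark TTCNNNGAA (STAT) in Socs3, minus strand, chr11:117969317-117969616. N stands for any base. The middle base of TGANTCA is C in Lif but T in Osmr, while the AP-1 sequence itself has C or G there. Binding of AP-1 was not tested.
Lif: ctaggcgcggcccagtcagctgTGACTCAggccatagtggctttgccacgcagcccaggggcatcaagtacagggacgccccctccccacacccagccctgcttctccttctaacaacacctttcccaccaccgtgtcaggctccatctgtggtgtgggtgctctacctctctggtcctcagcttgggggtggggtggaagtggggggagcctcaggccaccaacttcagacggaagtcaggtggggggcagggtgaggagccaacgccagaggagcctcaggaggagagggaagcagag
Osmr: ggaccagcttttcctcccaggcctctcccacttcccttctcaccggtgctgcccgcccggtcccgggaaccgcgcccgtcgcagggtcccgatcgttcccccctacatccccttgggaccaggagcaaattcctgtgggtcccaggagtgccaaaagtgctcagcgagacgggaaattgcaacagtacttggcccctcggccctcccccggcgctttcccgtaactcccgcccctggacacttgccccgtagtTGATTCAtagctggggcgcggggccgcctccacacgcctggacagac
Socs3: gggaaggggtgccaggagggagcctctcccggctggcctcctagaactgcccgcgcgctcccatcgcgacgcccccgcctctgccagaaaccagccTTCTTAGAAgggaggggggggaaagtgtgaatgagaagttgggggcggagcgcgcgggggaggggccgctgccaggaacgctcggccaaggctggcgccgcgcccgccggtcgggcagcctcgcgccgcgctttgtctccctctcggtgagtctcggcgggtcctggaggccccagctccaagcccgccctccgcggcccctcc
Both motifs read the same on either strand and do not overlap here. TGANTCA began 228 bases before the start in Lif and 3 bases after it in Osmr, and was present in 7.81% of 32851 promoters of this length. TTCNNNGAA began 154 bases before the listed start of Socs3 and was present in 8.3%. TGANTCA was also in a window of Il6 and of Il11. A match is a description of these letters only, and the starts listed for Osmr and Socs3 lie inside the longer spans of the genes given above.

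Among other genes of the pathway, Stat3, which encodes the factor itself, stood nearest to Socs3. Over the 22 libraries, which share mice and tissue content, the genes most like Socs3 in log2 CPM were Stat3 (Pearson r = 0.861), Junb (0.831) and Midn (0.787), of 13480 compared. Stat3 averaged 171 ± 19.1 CPM in CKO loaded and 143 ± 23.1 CPM in CKO non-loaded ulnae, and 162 ± 17.4 CPM in WT loaded and 137 ± 17.7 CPM in WT non-loaded ulnae. In 11 of 11 mice Stat3 was higher on the loaded side, by 0.25 ± 0.08 on the log2 scale for the mean of both genotypes, and it missed the threshold (adjusted p = 0.954). Those most like Osmr were Tmbim1 (0.903), Gprc5a (0.892) and Mt2 (0.887).

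The remaining members resembled other genes. Osm was most like Samsn1 (0.958), Treml2 (0.954) and Dera (0.951), and Il6ra like Gpr141 (0.933), Tm6sf1 (0.914) and Man2a1 (0.909). Il11ra1 was most like Plce1 (0.981), Tshz2 (0.948) and Lamb2 (0.946), Il6st like Efnb2 (0.950), Rab11fip5 (0.931) and Tjp1 (0.926), and Lifr like Per3 (0.943), Nhsl1 (0.942) and Adarb1 (0.942). Lif had the weakest likeness, to Slc4a2 (0.790), Oscar (0.790), an osteoclast receptor gene, and Nyap2 (0.778).

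No gene of the 4 other pathway lists passed the threshold for the mean of both loading effects, in the interaction or in any other contrast. For the mean of both, 20 of 25 genes described as STAT3-induced had a log2 fold change above 0 (median 0.10), beside 45.7% of all 18793 genes (median -0.01). 5 of the 25 had an unadjusted p under 0.05 and were higher, beside 1.75% of all genes. The list was chosen with earlier results of these data known, so these shares are a description and no test. In CKO alone 12 of these 25 lay above 0, with a median of -0.01, and in WT 18 of 25, with 0.19. Of the 25, Ccl2, a monocyte chemokine gene, and Fos, an AP-1 subunit gene, had the smallest p. Ccl2 averaged 1.45 ± 0.856 CPM in CKO loaded, 0.701 ± 0.528 CPM in CKO non-loaded, 1.48 ± 1.14 CPM in WT loaded and 0.476 ± 0.249 CPM in WT non-loaded ulnae, with more in the loaded ulna in 11 of 11 mice (mean of both 1.34 ± 0.38, adjusted p = 0.593). For Fos the mean of both was 0.73 ± 0.22 (adjusted p = 0.726), with more in the loaded ulna in 8 of 11 mice. In the interaction Fos had 0.76 ± 0.43 and Ier3, an immediate-early gene, 0.30 ± 0.18, the smallest p-values of that list.

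The kinases, STAT factors and adaptors were spread around 0, with 5 of 11 above 0 for the mean of both loading effects and a median of -0.01. After Stat3 the smallest p was that of Tyk2, a JAK kinase gene, with -0.14 ± 0.10. In the interaction Tyk2 gave -0.33 ± 0.20. Of 12 other feedback genes 7 lay above 0, with a median of 0.02. Pias3, which encodes an inhibitor of STAT3, gave -0.16 ± 0.07 for the mean with more in the loaded ulna in 0 of 4 CKO and 3 of 7 WT mice, and Socs5 gave 0.18 ± 0.09. Socs7 (0.37 ± 0.26) and Socs4 (-0.25 ± 0.17) had the smallest interaction p of these.

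Of 14 further ligand and receptor genes 12 were measured and tested, and 6 lay above 0 for the mean of both loading effects, with a median of -0.01. Clcf1, which encodes a cytokine that signals through gp130 and Lifr, averaged 7.28 ± 1.73 CPM in CKO loaded, 6.15 ± 1.68 CPM in CKO non-loaded, 8.77 ± 2.01 CPM in WT loaded and 6.87 ± 3.15 CPM in WT non-loaded ulnae (mean of both 0.30 ± 0.21, adjusted p = 0.999). Ebi3, a subunit gene of IL-27, gave -0.33 ± 0.25 for the mean and -0.87 ± 0.50 in the interaction. Il12rb1, a receptor chain gene of T and NK cells, gave -0.91 ± 0.46 in the interaction. The adjusted p of each value in this paragraph was 0.697 or more.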

How the data were processed

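Total RNA from 22 ulnae was sequenced as stranded total RNA libraries, per the labels' protocols. STAR, RSEM and genome build GRCm38 are named in the submitters' processing notes; no version or annotation is named there. Each library's deposited file lists estimated counts made by the authors, whole in every row, and these were used unrounded. 25428 of 25471 genes were matched to symbols by Ensembl identifier; coordinates and exon lengths come from GENCODE M21.

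edgeR 4.0.16 (R 4.3.3, limma 3.58.1) was fitted to all 22 libraries with 4 group means (TMM, filterByExpr, glmQLFit with robust=TRUE, glmQLFTest). 18793 genes were tested, with 18 residual degrees of freedom and Benjamini-Hochberg adjustment over all of them, called under 0.05. Il6 and Il11 failed the filter. The SE is the log2 fold change divided by the square root of F. The mean of both loading effects weights the genotypes equally. Log2 CPM used a prior count of 2. Limbs of 1 number come from the same mouse, which pairs them. The main fit leaves this pairing out, also for the interaction, and the fit with the mouse as a block uses it. After subtracting group means the 2 limbs correlated at -0.256 to 0.415 (median 0.189, over 0.1 in 7 of 11 mice). No libraries of a group were alike (chi-square per gene 25.3 to 501 over 54 pairs). Alternatives were the mouse as a block (limma voom with a random effect for genotype contrasts), DESeq2 1.42.0, median-ratio scaling, no filter, muscle and marrow covariates, and leaving out mice. The labels name separate mice, so the spread is between animals.

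Named were all members, the 2 genes of each pathway list with the smallest p in the mean loading effect and in the interaction, and the 3 genes most like each tested member among named genes of at least 1 CPM. 1 gene that this rule names is not reported here. The members and lists were chosen with earlier results of these data known. Simulated counts, drawn without pairing of limbs, were put through the main edgeR fit for loading in WT and in CKO only. The other fits and contrasts were not simulated.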

Additional observations from a re-analysis of the deposited data

Results flagged for a closer look

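Of 56 sets of values checked (each member in each group, and each tested member's limb differences in each genotype), 7 held a library or mouse set apart from the rest of its group by the size of its gap; chance flags about 1 in 20 such sets.

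The Osmr level of WT loaded 694 (28.5 CPM) and the Osm level of WT non-loaded 699 (10.3 CPM) stood apart from the other WT libraries of their groups. Il11ra1 in CKO non-loaded 691 (15.6 CPM) was below the other CKO non-loaded libraries, and the Il11ra1 limb difference of that mouse (1.40, log2 loaded minus non-loaded) was above those of the other CKO mice. Il6ra in WT loaded 692 (93.8 CPM) and Il11 in WT non-loaded 692 (0.354 CPM) were high for their groups. The Socs3 limb difference of WT 690 (1.24) was above those of the other WT mice; without that mouse the Socs3 log2 fold change for loading in WT was 0.39.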

How the results depend on the processing

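The main edgeR fit called 0 members in any contrast. Osmr was 1 called member for loading in WT with muscle and marrow covariates, with and without the mouse as a block, and 1 for the mean of both loading effects with DESeq2, with covariates and with block and covariates; leaving out each mouse gave 0 to 1 for that mean. Over all genes the count for loading in WT (1 in the main fit) was 2 with the replicate block, 11 with DESeq2, 5 with covariates, 19 with block and covariates, 0 with the block without mice 686 and 688, and 0 to 2 without single mice. For loading in CKO (3) it was 5 with the block, 22 with DESeq2, 1 with covariates, 5 with block and covariates, 0 without mice 686 and 688 with or without the block, and 0 to 5 without single mice. For the mean of both (17) it was 11 with the block, 33 with DESeq2, 54 with block and covariates, 6 with the block without mice 686 and 688, and 10 to 22 without single mice. For CKO over WT in non-loaded bone (0) it was 2 with DESeq2, 1 without mice 686 and 688 and 0 to 1 without single mice, and in loaded bone (0) it was 1 without mice 686 and 688. The cause was not tested. The block alone changed no call of a member. Both combinations of the block with a further choice were chosen after seeing the data.

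Signs turned in some values near 0 and in some larger ones. The larger ones included, in the main fit, 0.33 for Il11ra1 with loading in CKO. In the interaction they included 0.25 for Il6st and 0.24 for Osmr. For loading in WT, Osm was 0.17 with the block, 0.0015 with block and covariates and 0.21 with the block without mice 686 and 688, where Il6st was -0.0014 without the block; without single mice Osm ran from -0.22 to 0.45, Il6st from -0.074 to 0.10 and Il11ra1 from -0.25 to 0.0085. For loading in CKO, Lifr was -0.10 with covariates and -0.078 with block and covariates, where Il11ra1 was -0.044, and Lifr ran from -0.018 to 0.12 without single mice. In the interaction Osmr was -0.054 with covariates and -0.076 with block and covariates, where Il6st was -0.028. For the mean of both, Il6ra was 0.027 and Il11ra1 -0.017 with covariates, Il11ra1 was -0.057 with block and covariates and ran from -0.020 to 0.17 without single mice. For CKO over WT with covariates, Il6ra was -0.040 and Osmr 0.046 in non-loaded bone, and Il6st -0.0082, Il11ra1 -0.089, Osm 0.11 and Osmr -0.0083 in loaded bone. Without single mice Il6ra ran from -0.17 to 0.20 and Socs3 from -0.23 to 0.34 in non-loaded bone, and Osm from -0.29 to 0.050 in loaded bone. Depth limits Il6 and Il11, with at most 17 counts per library.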
